A study of Homo sapiens with 12 samples.

Results

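The genes described here are 10 members of the BCL2 family, the proteins that decide whether the mitochondrial route of apoptosis is opened. They were taken by name (BCL2L1, BCL2L2, MCL1, BAK1, BAX, BID, BAD, BCL2L11, BBC3 and PMAIP1) from the 20263 Ensembl genes measured, and each name matched 1 identifier. All 10 had a mean of at least 1 TPM in each cell line, the level above which genes were tested. TPM is the share of a gene among a library's transcripts, corrected for gene length and scaled to a fixed total, so levels of different genes can be set side by side.

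The family works by binding between its own members. BAX and BAK, the effectors, assemble in the outer mitochondrial membrane and let cytochrome c out, which starts the caspase cascade. The anti-apoptotic members BCL-XL (gene BCL2L1), BCL-W (gene BCL2L2) and MCL1 hold effectors and activators in check. The BH3-only members, BID, BAD, BIM (gene BCL2L11), PUMA (gene BBC3) and NOXA (gene PMAIP1), sense stress and either occupy the anti-apoptotic proteins or activate the effectors. In colorectal epithelium BCL-XL is known as a main guard against cell death, and its gene lies on the long arm of chromosome 20, which colorectal cancers often gain. BCL2L1 and MCL1 pre-mRNAs can each be spliced to a long anti-apoptotic and a short pro-apoptotic form. Values per gene do not separate the forms, nor do they show protein, cleavage or phosphorylation.

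RNA was sequenced in 12 libraries of 2 established human colorectal cancer cell lines, with 3 libraries in each of 4 groups. HCT116 carried a CKAP2L overexpression construct or a vector control, and RKO carried a short hairpin RNA against CKAP2L (shCKAP2L) or a negative control (NC). CKAP2L is a mitotic spindle protein, and the study's title links it to STAT3, AREG and EGFR. The promoter of the construct, the sequence of the hairpin and whether cells were clones or pools are not given in the labels, and p-values measure the spread between libraries that may share a culture.

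CKAP2L itself was at 226.8 ± 6.8 TPM with the construct and 14.02 ± 1.21 TPM with vector in HCT116 (SD, n = 3 each), and at 7.99 ± 0.507 TPM with shCKAP2L and 24.88 ± 0.88 TPM with NC in RKO (SD, n = 3 each). The genotype labels of shCKAP2L replicates 2 and 3 carry other symbols than their titles, and CKAP2L was low in these libraries too. Of 7 colorectal epithelial markers, 6 averaged at least 1 TPM in each HCT116 group and 4 did so in each RKO group, where CDH1 was listed at 0 in all libraries and VIL1 was at or near 0 in both lines. Their summed level was 6328 to 6399 TPM with the construct and 6959 to 7336 TPM with vector, and 149.0 to 158.2 TPM with shCKAP2L and 197.5 to 209.0 TPM with NC, with keratins making up most of it. Single markers did not share 1 direction: in HCT116 KRT8 was at 1385 to 1419 TPM with CKAP2L and 1702 to 1858 TPM with vector, but EPCAM at 315.7 to 322.5 TPM with CKAP2L and 281.2 to 286.5 TPM with vector. In RKO KRT18 was at 89.06 to 95.61 TPM with shCKAP2L and 144.2 to 156.0 TPM with NC, but KRT8 at 29.57 to 30.18 TPM with shCKAP2L and 23.52 to 25.82 TPM with NC. The part of these shifts in the results was not tested. The immune marker genes CD3E and PTPRC were at 0 in all RKO libraries and at most at 0.15 TPM in HCT116, while CD68, a lysosomal protein gene also used as a macrophage marker, was at 1056 to 1070 TPM with shCKAP2L and 1031 to 1048 TPM with NC in RKO.

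Of the 10 members, 5 were higher and 0 lower with CKAP2L overexpression in HCT116, where 20.6% of 12732 tested genes were called (16.4% higher, 4.26% lower). In RKO, 2 members were higher and 4 lower with shCKAP2L, where 68.5% of 11442 tested genes were called (26.4% higher, 42.1% lower), so a share of 6 in 10 was near the background. A gene was called at an adjusted p under 0.05, from limma on log2(TPM + 1) with Benjamini-Hochberg adjustment over all tested genes of the line. All fold changes below are differences on that scale with their standard error (SE). BCL2L2, BBC3 and PMAIP1 rose with overexpression in HCT116 and fell with knockdown in RKO. In bulk RNA, a change in the number of cells that express a gene and a change in RNA per cell cannot be told apart. BCL2L1 rose in both comparisons, MCL1 passed in HCT116, and BAK1 and BAD passed in RKO. BAX, BID and BCL2L11 passed in neither line. The median log2 fold change of the members was 0.11 in HCT116, against 0.05 over all tested genes, and -0.05 in RKO, against -0.05 over all tested genes. In HCT116 79.3% of all calls were higher, but 48.2% after median-of-ratios rescaling, and the same 5 members were called higher under both scalings.

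**Figure D1:**
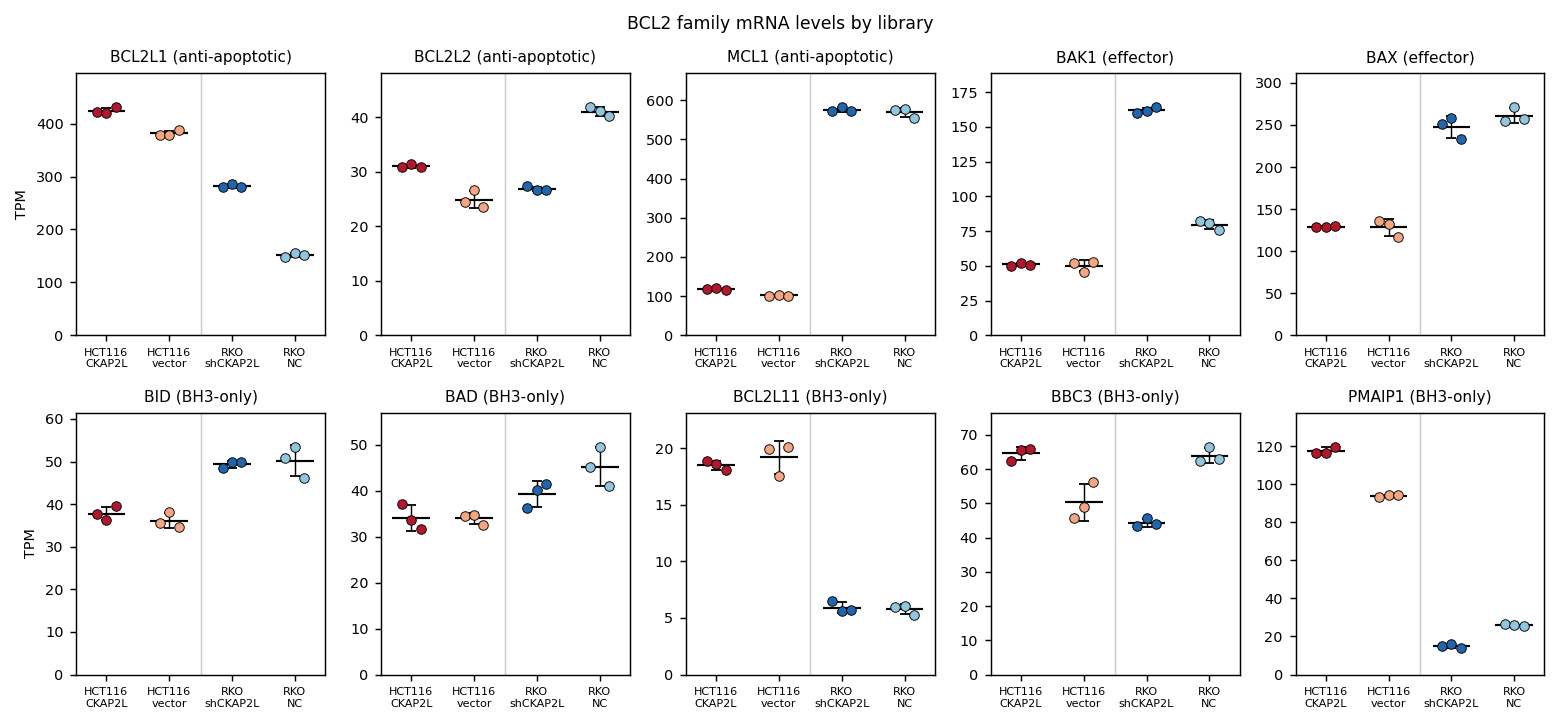
TPM (vertical axis, from 0) of each member in the 12 libraries; points are libraries, horizontal lines are group means and bars are 1 SD (n = 3). BAK1 and BCL2L1 stand apart between the RKO groups, while BAX, BID and BCL2L11 overlap between the groups of each line.

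Among the anti-apoptotic members, BCL2L1 showed the largest change in RKO and the smallest in HCT116. In HCT116 it was at 422.8, 419.6 and 430.9 TPM with CKAP2L, against 379.2, 379.4 and 387.5 TPM with vector (log2 fold change 0.15 ± 0.028, limma adjusted p = 0.0019). In RKO it was at 279.98, 286.8 and 281.1 TPM with shCKAP2L, against 147.9, 156.1 and 151.8 TPM with NC (log2 fold change 0.89 ± 0.026, limma adjusted p = 6.36e-13). The groups did not overlap in either line, and the mean was 11.1% higher with overexpression and 86.0% higher with knockdown. In RKO 1.25% of tested genes had a larger absolute log2 fold change, and in HCT116 27.1% did. The HCT116 change shrank to 0.09 with median-of-ratios rescaling (limma adjusted p = 0.0469) and to 0.08 with quantile normalization (limma adjusted p = 0.0424), and over 15 alternatives the adjusted p ran from 0.000287 to 0.0469. The level was high in both lines: 98.1% of tested genes were below it in HCT116 vector cells and 92.1% in RKO NC cells.

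BCL2L1 (ENSG00000171552) lies at GRCh38 chromosome 20, 31664452 to 31723989, on the minus strand. RefSeq (GRCh38.p14) lists 2 start sites, and the upstream promoter window, from 250 bases before to 50 bases after the start (chr20:31723914-31724213, minus strand), is shown because this gene and BAK1 rose together in RKO. Capitals in this and the other promoters below mark matches on either strand to 6 motifs. These were the STAT site TTCNNNGAA, the E-box with letters CACGTG, the cyclic AMP response element (CRE) TGACGTNA, the AP-1 site TGANTCA, the box named CCAAT after its letters and the so-called GC box, spelled GGGCGG. The upstream BCL2L1 window held no match to any of them, and the downstream window held 1 GC box. The antisense genes ABALON and AL117381.1 overlap BCL2L1 and were not analysed here.
BCL2L1: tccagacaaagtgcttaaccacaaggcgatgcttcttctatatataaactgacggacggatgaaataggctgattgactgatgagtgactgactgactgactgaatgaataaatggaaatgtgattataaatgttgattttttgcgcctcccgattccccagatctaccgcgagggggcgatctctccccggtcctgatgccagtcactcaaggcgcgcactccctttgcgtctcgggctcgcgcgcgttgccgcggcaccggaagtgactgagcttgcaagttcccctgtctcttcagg

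MCL1 (ENSG00000143384; chromosome 1, 150574551 to 150579738, minus strand), a short-lived protein that restrains BAK and is the main partner of NOXA, was at 117.4, 120.4 and 114.5 TPM with CKAP2L, against 101.2, 102.8 and 101.4 TPM with vector in HCT116 (log2 fold change 0.20 ± 0.034, limma adjusted p = 0.00083). Each CKAP2L library was above each vector library, and the mean was 15.4% higher. The HCT116 log2 fold change shrank to 0.14 with median-of-ratios rescaling (limma adjusted p = 0.0129). In RKO MCL1 was at 571.3, 581.6 and 571.5 TPM with shCKAP2L, against 574.6, 577.5 and 555.1 TPM with NC, with overlapping groups (0.01 ± 0.024, limma adjusted p = 0.598). That result depended on scaling: MCL1 was called higher in RKO after median-of-ratios rescaling, at 0.06 (limma adjusted p = 0.0159), and without the mitochondrially encoded mRNAs, at 0.05 (limma adjusted p = 0.0325). Over its 15 alternatives the adjusted p ran from 0.0159 to 0.905.

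BCL2L2 (ENSG00000129473; chromosome 14, 23298790 to 23311759, plus strand), a close relative of BCL-XL, had 30.9, 31.3 and 30.8 TPM with CKAP2L, against 24.5, 26.6 and 23.5 TPM with vector in HCT116 (log2 fold change 0.31 ± 0.051, limma adjusted p = 0.000776). The RKO libraries held 27.3, 26.6 and 26.7 TPM with shCKAP2L, against 41.8, 41.1 and 40.1 TPM with NC (-0.59 ± 0.033, limma adjusted p = 4.46e-10). The mean was thus 24.8% higher with overexpression and fell by 34.5% with knockdown, with no overlap of groups in either line. With median-of-ratios rescaling the HCT116 log2 fold change was 0.25 (limma adjusted p = 0.00965). BCL2L2 shares sequence with 3 annotated neighbours, and the sources do not say whether reads were counted by strand. The read-through gene BCL2L2-PABPN1, on the same strand, was listed at 0 in all libraries, while the opposite-strand genes HOMEZ (12.8 and 11.7 TPM with CKAP2L and vector, 3.91 and 3.63 TPM with shCKAP2L and NC) and PPP1R3E (5.20 TPM with shCKAP2L and 4.33 TPM with NC) were lower than BCL2L2.

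The effectors differed from each other. BAK1 was at 50.1, 52.2 and 50.7 TPM with CKAP2L, against 52.0, 45.6 and 52.5 TPM with vector in HCT116, where the groups overlapped (log2 fold change 0.03 ± 0.051, limma adjusted p = 0.718). Under median-of-ratios rescaling, quantile normalization and rescaling without mitochondrial mRNAs the sign turned, as it did for BAX and BAD in HCT116, and none of these 3 was called. In RKO BAK1 was at 160.1, 161.6 and 164.0 TPM with shCKAP2L, against 82.0, 80.5 and 76.1 TPM with NC (1.02 ± 0.030, limma adjusted p = 6.87e-13). The groups were far apart, with a ratio of mean TPM of 2.04, and 0.682% of tested genes in RKO had a larger absolute log2 fold change. The pseudogene GGNBP1 overlaps BAK1 on the other strand and was not analysed here.

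BAK1 (ENSG00000030110) lies at chromosome 6, 33572547 to 33580293, minus strand. Its RefSeq promoter window (GRCh38.p14, chr6:33580227-33580526, minus strand) held 2 CCAAT boxes and 2 GC boxes, and no STAT, E-box, CRE or AP-1 match.
BAK1: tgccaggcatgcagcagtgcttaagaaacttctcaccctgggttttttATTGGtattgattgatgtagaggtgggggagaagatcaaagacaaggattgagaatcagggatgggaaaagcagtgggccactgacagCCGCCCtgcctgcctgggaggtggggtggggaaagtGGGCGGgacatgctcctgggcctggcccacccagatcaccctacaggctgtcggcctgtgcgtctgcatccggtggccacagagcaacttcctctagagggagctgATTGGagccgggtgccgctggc

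BAX (ENSG00000087088; chromosome 19, 48954815 to 48961798, plus strand) ranged over 128.7 to 130.01 TPM with CKAP2L and 117.0 to 136.1 TPM with vector in HCT116 (log2 fold change 0.01 ± 0.047, limma adjusted p = 0.865). In RKO it ranged over 233.2 to 258.4 TPM with shCKAP2L and 255.2 to 270.9 TPM with NC (-0.08 ± 0.035, limma adjusted p = 0.0575). The groups overlapped in both lines. The RKO difference lay near the threshold, and it was called lower among genes with a mean of at least 5 TPM (adjusted p = 0.0452), with the replicate number as a block (adjusted p = 0.0129) and without shCKAP2L replicate 2 (adjusted p = 0.0139, limma in each case). Its 15 alternatives ran from 0.0129 to 0.787 in adjusted p. BAX was the more abundant effector in every library, with a BAX to BAK1 ratio of 1.569, 1.599 and 1.422 with shCKAP2L, against 3.11, 3.36 and 3.39 with NC in RKO, and of 2.57, 2.46 and 2.57 with CKAP2L, against 2.62, 2.89 and 2.23 with vector in HCT116.

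**Figure D2:**
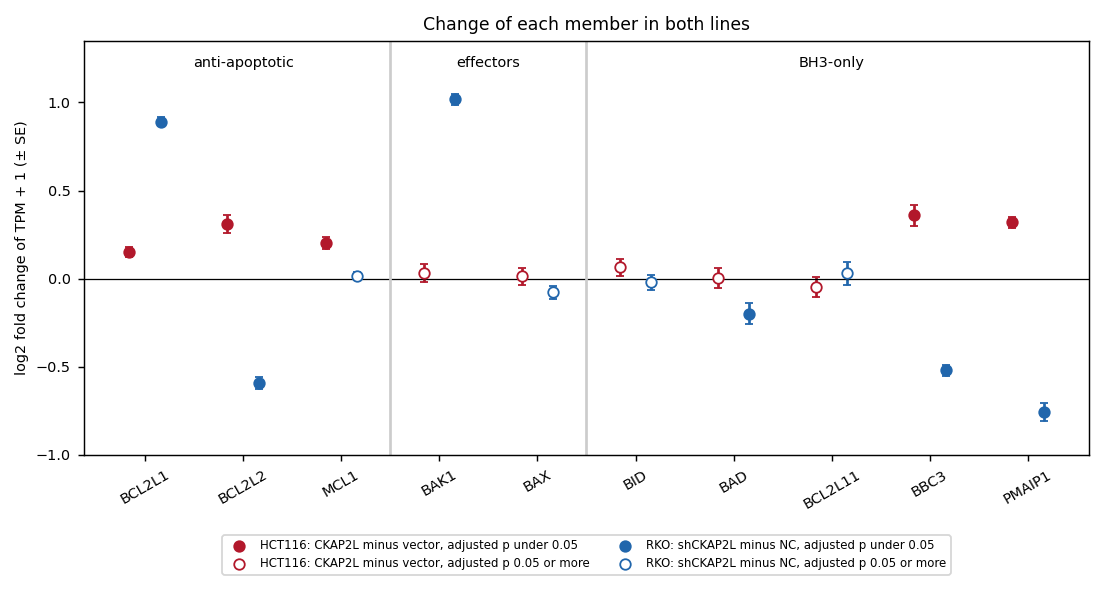
Log2 fold change of TPM + 1 (vertical axis, bars are SE, n = 3 per group) of each member in HCT116 (CKAP2L minus vector) and RKO (shCKAP2L minus NC); filled points have a limma adjusted p under 0.05. BCL2L2, BBC3 and PMAIP1 lie above 0 in HCT116 and below 0 in RKO, and BAK1 has the largest value, 1.02 in RKO.

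Of the 5 BH3-only members, BBC3 and PMAIP1 moved in both lines and in opposite directions between them. BBC3, a target of p53, FOXO factors and the stress factor CHOP, was at 62.3, 65.6 and 65.8 TPM with CKAP2L, against 45.7, 48.9 and 56.2 TPM with vector in HCT116 (log2 fold change 0.36 ± 0.060, limma adjusted p = 0.000865). RKO cells had 43.3, 45.6 and 43.9 TPM with shCKAP2L, against 62.5, 66.5 and 62.8 TPM with NC (-0.52 ± 0.034, limma adjusted p = 2.48e-09). The groups did not overlap in either line, and the mean was 28.5% higher with overexpression in HCT116 and fell by 30.8% with knockdown in RKO. Vector replicate 3 was the highest of the HCT116 vector libraries, and over the 15 alternatives the HCT116 fold change ran from 0.30 to 0.44.

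PMAIP1, which p53 and the integrated stress response are known to induce, was at 116.3, 116.5 and 119.8 TPM with CKAP2L, against 93.3, 94.2 and 94.3 TPM with vector in HCT116 (log2 fold change 0.32 ± 0.033, limma adjusted p = 1.38e-05). RKO cells held less of it, at 15.1, 16.2 and 13.8 TPM with shCKAP2L, against 26.8, 25.9 and 25.6 TPM with NC (-0.76 ± 0.049, limma adjusted p = 2.56e-09). The mean was 25.1% higher with overexpression and fell by 42.3% with knockdown. With median-of-ratios rescaling the HCT116 log2 fold change was 0.26 (limma adjusted p = 0.000504). Among HCT116 members PMAIP1 had the smallest adjusted p, and in RKO 2.23% of tested genes had a larger absolute log2 fold change.

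BBC3 (ENSG00000105327) lies at chromosome 19, 47220822 to 47232766, minus strand, and PMAIP1 (ENSG00000141682) at chromosome 18, 59899948 to 59904306, plus strand. Their RefSeq promoter windows (GRCh38.p14, chr19:47232618-47232917, minus strand, and chr18:59899746-59900045, plus strand) are shown because these genes moved together in both lines, and they are unlike in composition. G and C made up 48.0% of the BBC3 window, with 5 CpG pairs, and 71.3% of the PMAIP1 window, with 42 CpG pairs. The BBC3 window held 1 E-box, 1 AP-1 and 1 CCAAT match and no GC box, and the PMAIP1 window held 4 GC boxes and none of the other motifs.
BBC3: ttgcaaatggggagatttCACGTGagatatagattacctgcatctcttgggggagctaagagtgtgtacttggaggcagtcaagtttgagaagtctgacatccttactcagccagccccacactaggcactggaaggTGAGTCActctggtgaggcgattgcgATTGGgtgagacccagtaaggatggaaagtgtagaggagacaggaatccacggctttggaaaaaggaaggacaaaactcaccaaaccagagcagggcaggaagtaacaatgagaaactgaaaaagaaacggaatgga
PMAIP1: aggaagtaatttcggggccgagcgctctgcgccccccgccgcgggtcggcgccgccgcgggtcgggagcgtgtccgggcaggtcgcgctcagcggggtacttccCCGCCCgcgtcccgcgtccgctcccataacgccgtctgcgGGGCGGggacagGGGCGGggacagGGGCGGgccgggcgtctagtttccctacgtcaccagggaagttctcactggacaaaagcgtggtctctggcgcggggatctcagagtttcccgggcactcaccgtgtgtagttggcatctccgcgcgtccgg

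RefSeq windows were matched for 8 members (all but BCL2L2 and MCL1). The STAT motif was in 0 of these 8 members and in 7.66% of all 35116 windows of the same length. E-boxes were in 3 of 8 members (BAX, BID and BBC3), against 7.26% of all windows, and the BAX window held 4 of them. AP-1 was in 1 of 8 (7.71% of all windows), CRE in 0 of 8 (3.01%), the CCAAT box in 5 of 8 (34.6%) and the GC box in 7 of 8 (45.0%), where members with several start sites had more than 1 window in which to match. A match is a run of letters and not a shown binding site, and no match speaks of these 300 bases alone.

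BAD, which growth factor kinases inactivate by phosphorylation, was at 31.6 to 37.2 TPM with CKAP2L and 32.6 to 34.7 TPM with vector in HCT116 (log2 fold change 0.003 ± 0.056, limma adjusted p = 0.975). In RKO it was at 36.2 to 41.5 TPM with shCKAP2L and 41.0 to 49.6 TPM with NC, and the call of a lower level (-0.20 ± 0.058, limma adjusted p = 0.00699) came with overlapping groups. The call was lost when genes under 1 TPM were kept in (adjusted p = 0.0584) and under quantile normalization (adjusted p = 0.0528, limma for both), and the 15 alternatives ran from 0.00113 to 0.0584. Without NC replicate 2 the difference was -0.13 (limma adjusted p = 0.0322). GPR137 overlaps most of BAD (ENSG00000002330; chromosome 11, 64269830 to 64284704, minus strand) on the other strand, at 19.2 TPM with shCKAP2L and 18.2 TPM with NC.

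BID, which caspase-8 cuts to link death receptors to mitochondria (ENSG00000015475; chromosome 22, 17734138 to 17774770, minus strand), was at 36.3 to 39.5 TPM with CKAP2L and 34.6 to 38.1 TPM with vector in HCT116 (log2 fold change 0.06 ± 0.049, limma adjusted p = 0.379). In RKO it was at 48.5 to 49.9 TPM with shCKAP2L and 46.2 to 53.5 TPM with NC (-0.02 ± 0.043, limma adjusted p = 0.684), but without NC replicate 3 it passed as lower, at -0.08 (limma adjusted p = 0.0438; range over the 15 alternatives 0.0438 to 0.904). BCL2L11 (ENSG00000153094; chromosome 2, 111119378 to 111168447, plus strand) had the lowest level of the members in each group. It ranged over 18.1 to 18.9 TPM with CKAP2L and 17.5 to 20.1 TPM with vector in HCT116 (-0.05 ± 0.059, limma adjusted p = 0.608), and over 5.62 to 6.46 TPM with shCKAP2L and 5.28 to 6.06 TPM with NC in RKO (0.03 ± 0.065, limma adjusted p = 0.696). Both genes overlapped between the groups of each line, and MIR4435-2HG, which lies across BCL2L11 on the other strand, was not analysed here. Over the 10 members, the groups did not overlap for 5 in HCT116, where this held for 37.3% of tested genes, and for 5 in RKO, where it held for 71.4%.

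The order of levels differed between the lines, which come from separate tables and were not tested against each other. In both HCT116 groups BCL2L1 was first and BAX second, and in both RKO groups MCL1 was first. MCL1 and PMAIP1 could not be ordered with CKAP2L in HCT116 (117.4 and 117.5 TPM on average, overlapping ranges), while with vector MCL1 was above PMAIP1 in every library. In RKO BCL2L1 stood above BAX with shCKAP2L and below it with NC, in every library. The neighbours BID and BAD overlapped in both HCT116 groups and with NC in RKO, BBC3 and BAK1 overlapped with vector, and BAD and BCL2L2 overlapped with NC. BCL2L1 made up 74.1% ± 0.67 of the summed anti-apoptotic TPM with CKAP2L and 75.1% ± 0.52 with vector in HCT116, and 32.0% ± 0.089 with shCKAP2L and 19.9% ± 0.52 with NC in RKO (SD, n = 3 each). MCL1 made up 65.0% ± 0.023 of it with shCKAP2L and 74.7% ± 0.45 with NC.

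The ratio of summed anti-apoptotic TPM (3 members) to summed pro-apoptotic TPM (7 members) was computed in each library and is described without a test, since it scores members chosen with earlier results known. In HCT116 it was 1.265 in each of the 3 CKAP2L libraries, against 1.210, 1.239 and 1.258 with vector. In RKO it was 1.567, 1.550 and 1.593 with shCKAP2L, against 1.446, 1.401 and 1.452 with NC. The ratio was thus higher in the manipulated libraries of both lines, by 0.03 in HCT116 and 0.13 in RKO on the log2 scale, with no overlap of the groups. Without vector replicate 1 the HCT116 difference was 0.0195, and leaving out the other libraries in turn gave up to 0.0476. In HCT116 both sums were higher with CKAP2L, at 572.9 ± 2.89 and 508.7 ± 3.79 TPM for the anti-apoptotic sum with CKAP2L and vector, and 452.7 ± 2.32 and 411.8 ± 5.05 TPM for the pro-apoptotic sum (SD, n = 3 each).

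The direction depended on which pro-apoptotic members were counted. Against BAX and BAK1 alone, the ratio was 3.19, 3.16 and 3.19 with CKAP2L and 2.68, 2.87 and 3.02 with vector in HCT116, but in RKO it was 2.14, 2.13 and 2.21 with shCKAP2L and 2.27, 2.20 and 2.24 with NC, a difference of -0.05 on the log2 scale with overlapping groups. Against the 5 BH3-only members alone, it was 5.87, 5.68 and 5.68 with shCKAP2L and 4.00, 3.84 and 4.13 with NC in RKO. In HCT116 it was 2.10, 2.11 and 2.10 with CKAP2L and 2.20, 2.18 and 2.16 with vector, a difference of -0.05 on the log2 scale. In RKO the BH3-only sum was 153.9 ± 4.01 TPM with shCKAP2L and 191.3 ± 10.3 TPM with NC, while the effector sum was 409.5 ± 11.5 and 340.8 ± 9.36 TPM with shCKAP2L and NC (SD, n = 3 each).

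**Figure D3:**
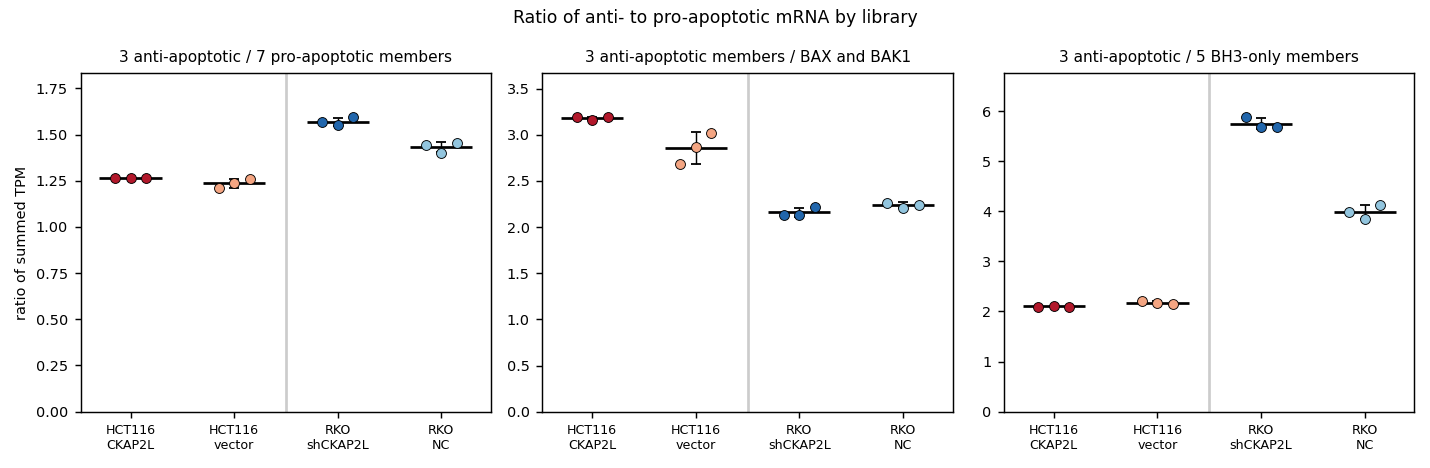
Ratio of summed TPM (vertical axis, from 0) of the 3 anti-apoptotic members to all 7 pro-apoptotic members, to BAX and BAK1, and to the 5 BH3-only members; points are libraries, lines are means and bars are 1 SD (n = 3). The largest separation is in RKO against the BH3-only members, 5.75 with shCKAP2L and 3.99 with NC on average.

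Ratios of single partners were set beside the sums. The MCL1 to PMAIP1 ratio was 37.8, 35.8 and 41.3 with shCKAP2L, against 21.5, 22.3 and 21.7 with NC in RKO, and 1.01, 1.03 and 0.956 with CKAP2L, against 1.09, 1.09 and 1.08 with vector in HCT116. The MCL1 to BAK1 ratio was 3.569, 3.599 and 3.484 with shCKAP2L and 7.00, 7.17 and 7.30 with NC. The BCL2L1 to BAK1 ratio was 1.75, 1.77 and 1.71 with shCKAP2L and 1.80, 1.94 and 2.00 with NC, lower in each knockdown library, while both genes rose. In HCT116 the BCL2L1 to BAK1 ratio averaged 8.32 ± 0.25 with CKAP2L and 7.66 ± 0.57 with vector, with overlapping groups, and the MCL1 to BAK1 ratio averaged 2.302 ± 0.041 with CKAP2L and 2.04 ± 0.18 with vector (SD, n = 3 each).

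Whether the lines differed was tested in 1 limma model of the 12 libraries, as the HCT116 difference (CKAP2L minus vector) minus the RKO difference taken as NC minus shCKAP2L, so that each is higher minus lower CKAP2L. Of 11024 genes tested in both lines 54.5% were called, and of the 10 members 5 were. BCL2L1 differed by 1.04 ± 0.037 (limma adjusted p = 3.03e-13) and BAK1 by 1.05 ± 0.062 (limma adjusted p = 2.08e-10). MCL1 differed by 0.22 ± 0.038 (limma adjusted p = 9.36e-05). BCL2L2 differed by -0.28 ± 0.059 (limma adjusted p = 0.000554) and PMAIP1 by -0.44 ± 0.061 (limma adjusted p = 9.06e-06), both with the HCT116 change the smaller of 2 changes of equal direction with CKAP2L. BBC3 did not pass, at -0.16 ± 0.076 (limma adjusted p = 0.0817), but did after median-of-ratios rescaling (adjusted p = 0.0380) and with a replicate block (adjusted p = 0.0363), with a range over the 4 alternatives of 0.0363 to 0.0849. Line and kind of manipulation cannot be told apart in this contrast.

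**Figure D4:**
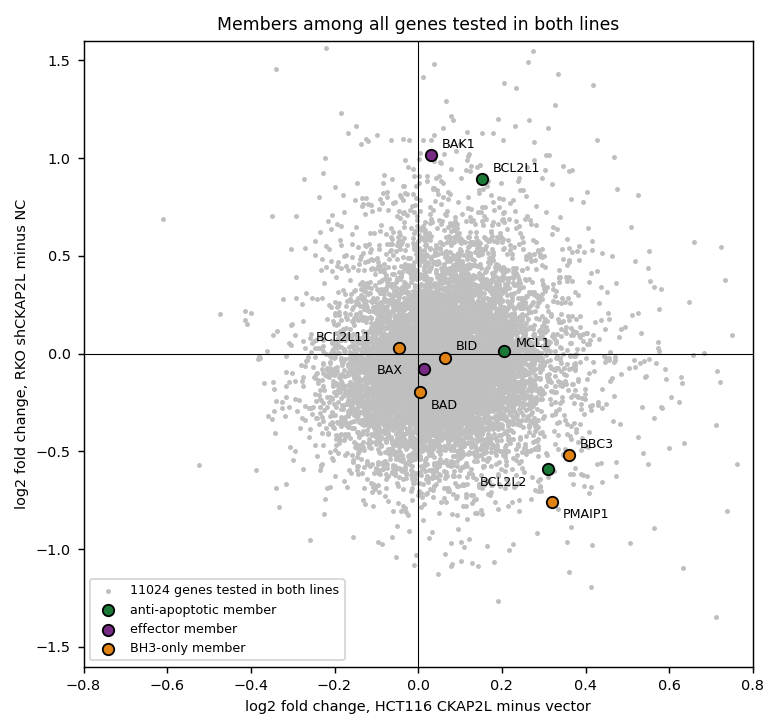
Log2 fold change in HCT116 (CKAP2L minus vector, horizontal axis) and in RKO (shCKAP2L minus NC, vertical axis) of the 11024 genes tested in both lines (grey; 9 lie outside the axes), with the 10 members coloured by role. BCL2L2, BBC3 and PMAIP1 lie at the lower right, and BAK1 and BCL2L1 at the top.

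Other apoptosis genes were taken from 5 lists. Their counts stand beside 20.6% of all tested genes called in HCT116 (median log2 fold change 0.05) and 68.5% in RKO (median -0.05). Calls for the list genes rest on the TPM as deposited and were not repeated under the alternatives used for the members. In HCT116 79.3% of all calls were higher on that scale, but 48.2% after median-of-ratios rescaling. Of 11 other BCL2 family genes, 7 were tested in HCT116, with 0 higher and 1 lower (median log2 fold change 0.03), and 8 in RKO, with 5 higher and 3 lower (median 0.19). BCL2A1, a further anti-apoptotic member and NF-kB target, was at 204.2, 203.4 and 212.9 TPM with shCKAP2L, against 128.2, 127.7 and 127.9 TPM with NC (0.69 ± 0.026, limma adjusted p = 6.55e-12), and at most at 0.23 TPM in the HCT116 libraries. BCL2L13, a mitochondrial membrane protein with a role in mitophagy, was at 32.3 ± 1.1 TPM with shCKAP2L and 14.2 ± 0.54 TPM with NC (1.13 ± 0.041, limma adjusted p = 4.38e-12). BCL2L12 fell in both lines, to 64.4 TPM with CKAP2L, against 74.8 TPM with vector, and to 54.9 TPM with shCKAP2L, against 88.7 TPM with NC. BOK, an effector-like member, rose in RKO (61.3 and 53.4 TPM with shCKAP2L and NC, 0.20 ± 0.032, limma adjusted p = 5.33e-05). BCL2 itself was low in both lines. It fell in RKO, to 2.99 TPM with shCKAP2L, against 4.10 TPM with NC (-0.35 ± 0.066, limma adjusted p = 0.000215). In HCT116 BCL2 was at 1.00 TPM with CKAP2L and 1.07 TPM with vector, and did not pass (limma adjusted p = 0.806). With 7 of these genes added to the sums (BCL2, BCL2A1 and BCL2L10 as anti-apoptotic, BOK, BIK, BMF and HRK as pro-apoptotic, a choice made after the values were seen), the ratio of anti- to pro-apoptotic TPM was 1.70, 1.68 and 1.73 with shCKAP2L and 1.504, 1.451 and 1.511 with NC in RKO. In HCT116 it was below 1, at 0.978, 0.9596 and 0.963 with CKAP2L and 0.903, 0.914 and 0.933 with vector.

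Downstream of the family, 3 of 15 tested genes of the apoptosome, caspases and their inhibitors were higher and 2 lower in HCT116 (median 0.07; 20.6% of all tested genes called), and 2 were higher and 6 lower in RKO (median -0.06; 68.5% of all tested genes called), where the share called was below that of all genes. CYCS, which encodes cytochrome c, fell to 48.4 ± 1.2 TPM with shCKAP2L, against 80.3 ± 1.7 TPM with NC (-0.72 ± 0.031, limma adjusted p = 2.51e-11), and was at 101.5 and 93.8 TPM with CKAP2L and vector (adjusted p = 0.0773). BIRC5, which encodes survivin, fell in both lines (76.6 and 83.4 TPM with CKAP2L and vector, 67.6 and 83.8 TPM with shCKAP2L and NC). PARP1, a caspase substrate, rose in RKO (165.5 and 121.2 TPM with shCKAP2L and NC).

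In the death receptor pathway, 4 of 12 tested genes were higher and 1 lower in HCT116 (median 0.12), against 20.6% of all tested genes called. In RKO 2 of 11 were higher and 4 lower (median -0.03), a share below the 68.5% of all tested genes. TNFRSF10B, a receptor for the death ligand TRAIL, rose in HCT116 (276.5 and 201.4 TPM with CKAP2L and vector, 0.46 ± 0.029, limma adjusted p = 1.95e-07) and did not pass in RKO (215.4 and 220.3 TPM with shCKAP2L and NC, adjusted p = 0.238). TNFRSF10A, the other TRAIL death receptor, rose in HCT116 (42.7 and 36.0 TPM with CKAP2L and vector) and fell in RKO (47.2 and 65.9 TPM with shCKAP2L and NC). The decoy receptor gene TNFRSF10D rose in RKO (142.0 and 117.4 TPM with shCKAP2L and NC), and the adaptor gene TRADD fell in both lines.

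Of 17 transcription factors and kinases known to act on members, 4 were higher and 0 lower in HCT116 (median 0.06), near the 20.6% of all tested genes called. In RKO 7 were higher and 8 lower (median -0.08), against 68.5% of all tested genes called. DDIT3, which encodes CHOP, rose in HCT116 (155.2 and 105.7 TPM with CKAP2L and vector, 0.55 ± 0.036, limma adjusted p = 2.15e-07) and fell in RKO (47.9 and 71.1 TPM with shCKAP2L and NC, -0.56 ± 0.033, limma adjusted p = 8.25e-10). ATF4 fell in RKO (376.4 and 498.1 TPM with shCKAP2L and NC) and did not pass in HCT116 (711.7 and 706.6 TPM with CKAP2L and vector, adjusted p = 0.835). E2F1 rose in RKO (80.0 and 61.2 TPM with shCKAP2L and NC), and PIM1, a kinase that inactivates BAD, fell there (19.4 and 30.7 TPM with shCKAP2L and NC). Of 12 tested genes of protein turnover and mitochondrial partners, 2 were higher and 3 lower in HCT116 (median 0.003; 20.6% of all tested genes called). In RKO 2 were higher and 7 lower (median -0.10), near the 68.5% of all tested genes called. MARCHF5, a mitochondrial ubiquitin ligase that acts on MCL1 and NOXA, rose in HCT116 (47.1 and 41.2 TPM with CKAP2L and vector, 0.19 ± 0.039, limma adjusted p = 0.00386) and fell in RKO (32.2 and 49.8 TPM with shCKAP2L and NC, -0.62 ± 0.035, limma adjusted p = 6.99e-10). VDAC1, a channel of the outer membrane, fell in both lines, YWHAZ, a 14-3-3 protein that binds phosphorylated BAD, rose in HCT116 and fell in RKO, and the ADP/ATP carrier gene SLC25A5 fell in HCT116 (741.8 and 864.6 TPM with CKAP2L and vector).

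**Figure D5:**
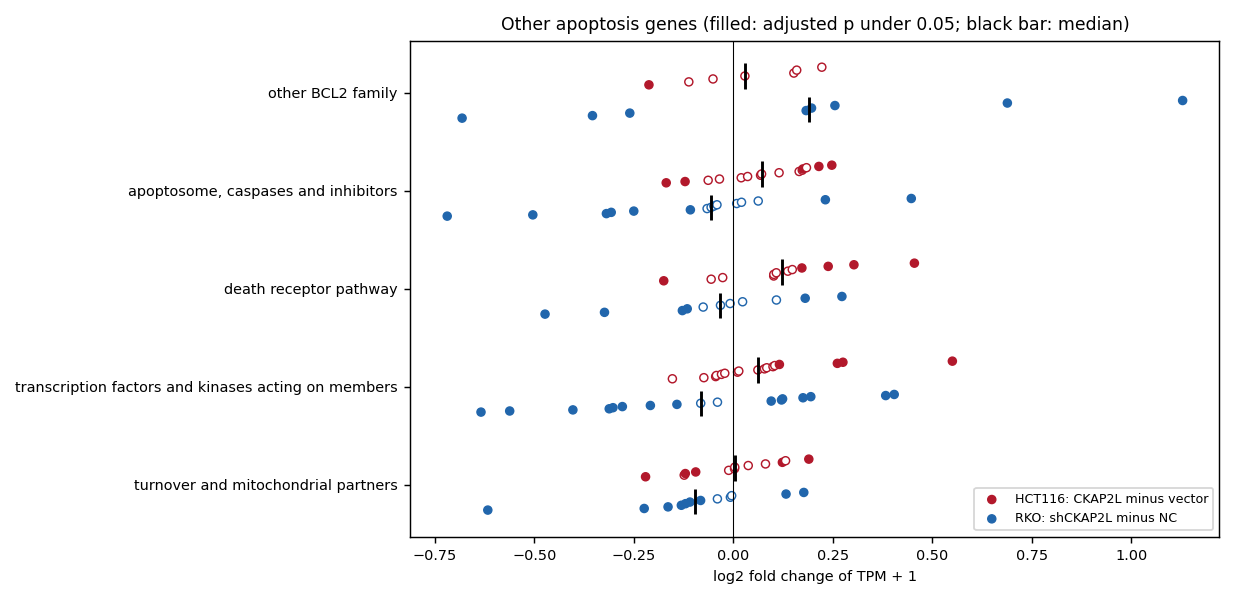
Log2 fold change of TPM + 1 (horizontal axis) of the tested genes of 5 lists in HCT116 (red, CKAP2L minus vector) and RKO (blue, shCKAP2L minus NC); filled points have a limma adjusted p under 0.05 and black bars are list medians. The widest spread is among the other BCL2 family genes in RKO, from BCL2L12 at -0.68 to BCL2L13 at 1.13.

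The genes most like 2 members in pattern were found by Pearson's r of log2(TPM + 1), centred within each line, over the 12 libraries and among 11024 genes. The points share the 4 groups, so r mostly restates the 2 group differences, and it is given as a description. Most like BBC3, the member with the largest change in HCT116, were MID1IP1 (r = 0.990; 118.4, 98.5, 39.1 and 51.9 TPM with CKAP2L, vector, shCKAP2L and NC), RARG (r = 0.989) and BAG2 (r = 0.987). Most like BAK1, the member with the largest change in RKO, were TERF1 (r = 0.997; 20.6, 20.7, 56.7 and 33.1 TPM in the same order of groups), GIT1 (r = 0.995) and PRC1 (r = 0.994).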

How the data were processed

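The authors deposited TPM for 20263 Ensembl genes, in a separate table for each cell line. Tools named in the submitters' processing notes are HISAT2 2.0, Trimmomatic 0.36, FastQC 0.11.2 and bedtools 2.26.0, on GRCh38; which program counted reads, on which annotation, is not given. Since TPM keeps no depth, depth is unknown and intervals of counting error were not made. No columns were identical (0 pairs). Library titles gave the groups. Symbols came from a gene name table (20148 identifiers) and GENCODE release 29 (76), which also gave positions; promoters are RefSeq's (GRCh38.p14).

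Genes averaging at least 1 TPM over the 6 libraries of a line were compared on log2(TPM + 1), which understates changes of low genes, by limma 3.58.1 (R 4.3.3; two-sided, prior variance with a trend, no covariate) with Benjamini-Hochberg adjustment. The steps were tested on simulated data. Alternatives covered pseudocount, filter, scaling, trend, a replicate block and leaving out each library. All 10 members are named, and up to 4 genes of each other list by smallest adjusted p; BCL2 was added after its values were seen. A gene this rule names and a marker gene are not reported here. Members and lists were chosen with earlier results of these data known. Python 3.11.15, pandas 2.3.3, numpy 2.4.6 and matplotlib 3.10.9 served for the rest.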

Additional observations from a re-analysis of the deposited data

Results flagged for a closer look

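For 5 members the change between higher and lower CKAP2L differed between HCT116 and RKO in the joint limma model (contrast as in the results, limma adjusted p under 0.05). The difference was 1.04 for BCL2L1, which was higher with overexpression in HCT116 and higher with knockdown in RKO, and 1.05 for BAK1, which passed in RKO and not in HCT116. It was 0.22 for MCL1, which passed in HCT116 and not in RKO. It was -0.28 for BCL2L2 and -0.44 for PMAIP1, where both lines moved in 1 direction with CKAP2L and the RKO change was the larger. Over all genes tested in both lines 54.5% were called, so 5 of 10 members is near the background.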

How the results depend on the processing

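All 5 members called in HCT116 kept their call and direction under each of 15 alternatives (75 of 75 values), and the 6 called in RKO kept their direction in 90 of 90 values and their call in 88, with BAD the exception. Over single members, 310 values kept direction and side of the threshold, 8 newly passed, 2 no longer passed and 20 turned sign. None of these 20 values was called (adjusted p of 0.05 or more), and the cause was not tested. In HCT116 the turned values were, for BAK1, BAX and BAD in this order, -0.0285, -0.0456 and -0.0549 with median-of-ratios scaling, -0.0196, -0.039 and -0.0549 with quantile normalization, and -0.017, -0.0339 and -0.0437 without mitochondrially encoded mRNAs. In RKO BID turned to 0.0217, 0.0541 and 0.0119 under the same 3 settings. Leaving out 1 library, BAK1 ran from -0.0338 to 0.0648, BAX from -0.0505 to 0.0575 and BAD from -0.0594 to 0.0556 in HCT116, and MCL1 from -0.00316 to 0.0253, BID from -0.0778 to 0.0257 and BCL2L11 from -0.0252 to 0.0609 in RKO.

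The difference in log2 ratio of anti- to pro-apoptotic TPM, 0.0345 in HCT116 and 0.132 in RKO, was 0.116 and 0.18 with geometric means, 0.154 and -0.05002 against the effectors alone, -0.0517 and 0.527 against the BH3-only members alone, and 0.0773 and 0.196 with 7 more family members, an alternative chosen after seeing the data. Without the most abundant member of each class it was 0.0383 in HCT116 and 0.459 in RKO. The 2625 genes called in HCT116 became 1689 without the trend, and leaving out 1 library gave 1480 (without CKAP2L replicate 1) to 3426 (without vector replicate 3), with 1719 without CKAP2L replicate 2; no member's call changed.

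The labels state no pairing by replicate number, and deviations of same-numbered libraries from their group means correlated at -0.088 to 0.049. Correlations over all tested genes cannot show whether libraries were prepared in numbered sets. The replicate block gave 2200 calls in HCT116 and 7861 in RKO, 5712 for the difference between lines, and added calls for BAX in RKO and BBC3 in the difference. Depth is unknown, so precision rests on 3 libraries a group.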

Other observations

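The 3 HCT116 CKAP2L libraries had a ratio of anti- to pro-apoptotic TPM of 1.265 with an SD of 0.00011, while the SD was 0.024 with vector, 0.022 with shCKAP2L and 0.028 with NC. The sums behind it differed more between the CKAP2L libraries, at 571.1, 571.2 and 576.2 TPM for the anti-apoptotic and 451.4, 451.4 and 455.4 TPM for the pro-apoptotic members.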
